A study of Homo sapiens with 12 samples.

Results

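The cytosolic and mitochondrial heat shock proteins, their co-chaperones and the subunits of the cytosolic chaperonin CCT were followed in 2 esophageal carcinoma cell lines in which STAT3 had been targeted with siRNA. The set was a list of 39 named genes. It held the heat shock factor HSF1, 7 HSP70 and HSP110 proteins, 8 J proteins, 4 small heat shock and BAG proteins, 9 proteins of the HSP90 system, the 2 subunits of the mitochondrial chaperonin and 8 CCT subunits. A probe named for the gene was found for 38 of the 39, and AHSA1 was not analysed here. Every one of these 38 passed the filter on dim probes in every comparison, out of 11179 genes tested in OE21, 10634 in OE33 and 12322 over both lines.

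Heat shock proteins are chaperones that hold newly made or damaged proteins until they fold. HSP70 works in cycles of ATP hydrolysis that J proteins start and that exchange factors of the HSP110 and BAG families end, and it passes some clients to HSP90 through the bridging protein HOP. HSP90 then matures kinases, steroid receptors and other signalling proteins, STAT3 among its known clients, while CCT folds actin and tubulin in a closed chamber. HSF1 drives many of these genes after heat or other stress by binding heat shock elements, which are inverted repeats of the unit GAA, and carcinoma cells commonly hold high levels of several chaperones without any heat.

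OE21 is a line from an esophageal squamous cell carcinoma and OE33 one from a Barrett's adenocarcinoma. Cells of each line received either a pool of 4 siRNA sequences against STAT3 or a negative control siRNA, in 2 rounds of transfection at 100 nM, and the RNA of the cells was collected 72 h after they were first transfected. OE21 was transfected with siPORT NeoFX and OE33 with DharmaFECT, so the line and the reagent used on it cannot be told apart. Each of the 4 groups had 3 arrays, which the design text calls biologically independent experiments, and the untreated cells of the protocol are not analysed here. Each group is 1 cell line grown in culture, and the arrays carried RNA from many cells, so fewer cells of a kind and less RNA per cell cannot be told apart.

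STAT3 itself was at 9.23, 8.90 and 9.24 in OE21 control cells and at 6.76, 6.77 and 7.47 after the siRNA, on a log2 intensity scale. This left 22.9% of the control level, and the 2 groups did not overlap, but the difference did not pass an adjusted p of 0.05 (limma adjusted p = 0.278). In OE33, STAT3 was at 9.04, 10.26 and 9.36 in control cells and at 9.10, 8.87 and 9.05 after the siRNA, and the groups overlapped (limma adjusted p = 0.991). Between 18034 and 19149 probes were detected per array, and arrays of 1 line correlated at 0.965 to 0.991 over the tested probes. All 6 squamous markers with a probe (KRT5, KRT14, DSG3, DSC3, SERPINB5 and SOX2) were detected on all 6 OE21 arrays. On the OE33 arrays, KRT5, KRT14 and DSG3 were detected on none and SOX2 on 1, while DSC3 and SERPINB5 were detected on all 6. Of 9 columnar markers, KRT8, KRT18 and AGR2 were detected on all 6 OE33 arrays and 4 others (KRT20, VIL1, CDX1 and TFF3) on none, so the columnar label of OE33 rests on those 3 genes, of which KRT18 and AGR2 were also detected on all OE21 arrays. One array, control replicate 2 of OE33, stood apart. It held the lowest value of its line for 21 of the 38 members and the highest for 11, against 30.3% and 32% of all genes. Without it the log2 fold change of STAT3 in OE33 was -0.19 (SE 0.14) in place of -0.55 (SE 0.30), a comparison added after the data were seen.

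Heat shock elements were common in the promoters of these genes. In 300 bases around each annotated start (250 before and 50 after), 18 of the 34 members with a promoter sequence held at least 1 core of the form GAANNTTC or TTCNNGAA, read on both strands, where N is any base. This was 52.9% of members, against 16.2% of all 27305 genes with such a sequence. Cores that share a unit form a 3-unit element, in which GAA, TTC and GAA (or TTC, GAA and TTC) follow each other with NN between them, and 7 members held 1 (20.6%), against 0.608% of all genes. The 7 were HSPA8, HSP90AA1, HSP90AB1, CHORDC1, HSPD1, DNAJA1 and DNAJB6. Members often had more than 1 annotated start, with 46 windows for the 34 members, and counted by window the core was found in 41.3% of member windows and in 13.5% of all windows. A match describes these letters and is not evidence of binding.

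The 250 bases before the start are shown 5′ to 3′ on the gene's strand, from RefSeq on GRCh38.p14, for members described in the results, with the cores in capitals and run together where they overlap. HSPA1A and HSPA1B, the inducible HSP70 genes, lie at chr6:31815293-31815542 (plus strand) and chr6:31827488-31827737 (plus strand). Their 300-base windows had 277 of 299 aligned bases in common, and each held 1 core. DNAJB1, an inducible J protein, is shown at the second of its 3 starts, chr19:14518398-14518647 (minus strand), with 2 cores. HSP90AA1, the inducible HSP90, is shown at the second of its starts, chr14:102087045-102087294 (minus strand), with 3 cores, and HSP90AB1, the constitutive one, at the third, chr6:44247693-44247942 (plus strand), with 4. CHORDC1, a co-chaperone of HSP90, is at chr11:90223050-90223299 (minus strand) and held 6 cores, the most of any member. PTGES3, the HSP90 co-chaperone p23, is at chr12:56688285-56688534 (minus strand). It is shown because it had no core and because its difference between groups had the smallest p of the members in OE21.
HSPA1A: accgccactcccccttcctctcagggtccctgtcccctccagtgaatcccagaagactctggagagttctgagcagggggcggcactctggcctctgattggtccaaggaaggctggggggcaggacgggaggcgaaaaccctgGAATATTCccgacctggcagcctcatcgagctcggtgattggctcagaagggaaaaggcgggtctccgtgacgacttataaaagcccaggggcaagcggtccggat
HSPA1B: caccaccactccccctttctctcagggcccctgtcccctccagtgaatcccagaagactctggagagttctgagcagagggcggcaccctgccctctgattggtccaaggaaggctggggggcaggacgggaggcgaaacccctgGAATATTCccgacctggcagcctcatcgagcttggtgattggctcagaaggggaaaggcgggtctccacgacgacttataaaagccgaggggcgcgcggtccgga
DNAJB1: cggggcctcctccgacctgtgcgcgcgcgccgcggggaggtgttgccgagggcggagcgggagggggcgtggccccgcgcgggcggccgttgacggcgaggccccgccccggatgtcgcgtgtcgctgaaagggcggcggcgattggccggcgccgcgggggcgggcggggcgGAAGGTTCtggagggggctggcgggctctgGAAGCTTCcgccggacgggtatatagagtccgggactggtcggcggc
HSP90AA1: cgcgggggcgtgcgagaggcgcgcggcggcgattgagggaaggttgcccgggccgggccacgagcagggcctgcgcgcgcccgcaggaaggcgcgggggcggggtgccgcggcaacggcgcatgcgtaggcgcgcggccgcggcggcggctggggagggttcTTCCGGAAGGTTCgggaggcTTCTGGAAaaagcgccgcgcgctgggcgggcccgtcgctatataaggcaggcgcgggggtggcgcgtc
HSP90AB1: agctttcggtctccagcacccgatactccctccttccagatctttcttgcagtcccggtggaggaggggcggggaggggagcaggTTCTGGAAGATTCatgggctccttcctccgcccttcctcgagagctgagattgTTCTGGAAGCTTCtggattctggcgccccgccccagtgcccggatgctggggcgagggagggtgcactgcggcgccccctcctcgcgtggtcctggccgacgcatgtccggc
CHORDC1: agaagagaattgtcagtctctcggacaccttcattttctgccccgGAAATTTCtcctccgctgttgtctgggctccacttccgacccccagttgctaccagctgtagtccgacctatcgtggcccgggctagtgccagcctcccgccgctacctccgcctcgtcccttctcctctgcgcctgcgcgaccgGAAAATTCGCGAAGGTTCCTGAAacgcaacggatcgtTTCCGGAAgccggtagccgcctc
PTGES3: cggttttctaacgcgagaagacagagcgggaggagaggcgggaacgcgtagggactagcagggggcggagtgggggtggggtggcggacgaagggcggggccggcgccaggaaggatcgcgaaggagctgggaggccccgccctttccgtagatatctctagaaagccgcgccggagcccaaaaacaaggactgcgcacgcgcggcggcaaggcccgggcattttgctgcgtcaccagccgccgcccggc

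In OE21, most of these genes were at lower levels on the STAT3 siRNA arrays than on the control arrays, but none passed the test. The log2 fold change was below 0 for 31 of 38 members (81.6%), against 50.5% of all genes, and its median was -0.23 against -0.003 over all genes. Under limma with Benjamini-Hochberg adjustment over all 11179 genes, 0 members and 0% of genes passed an adjusted p of 0.05, with adjusted p between 0.301 and 0.994 for the members. At an unadjusted p under 0.05 there were 8 members, all below 0, against 5.2% of genes below 0. The 3 siRNA values lay below all 3 control values for 9 members (23.7%) and above them for none, against 8.94% and 7.95% of all genes.

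**Figure D1:**
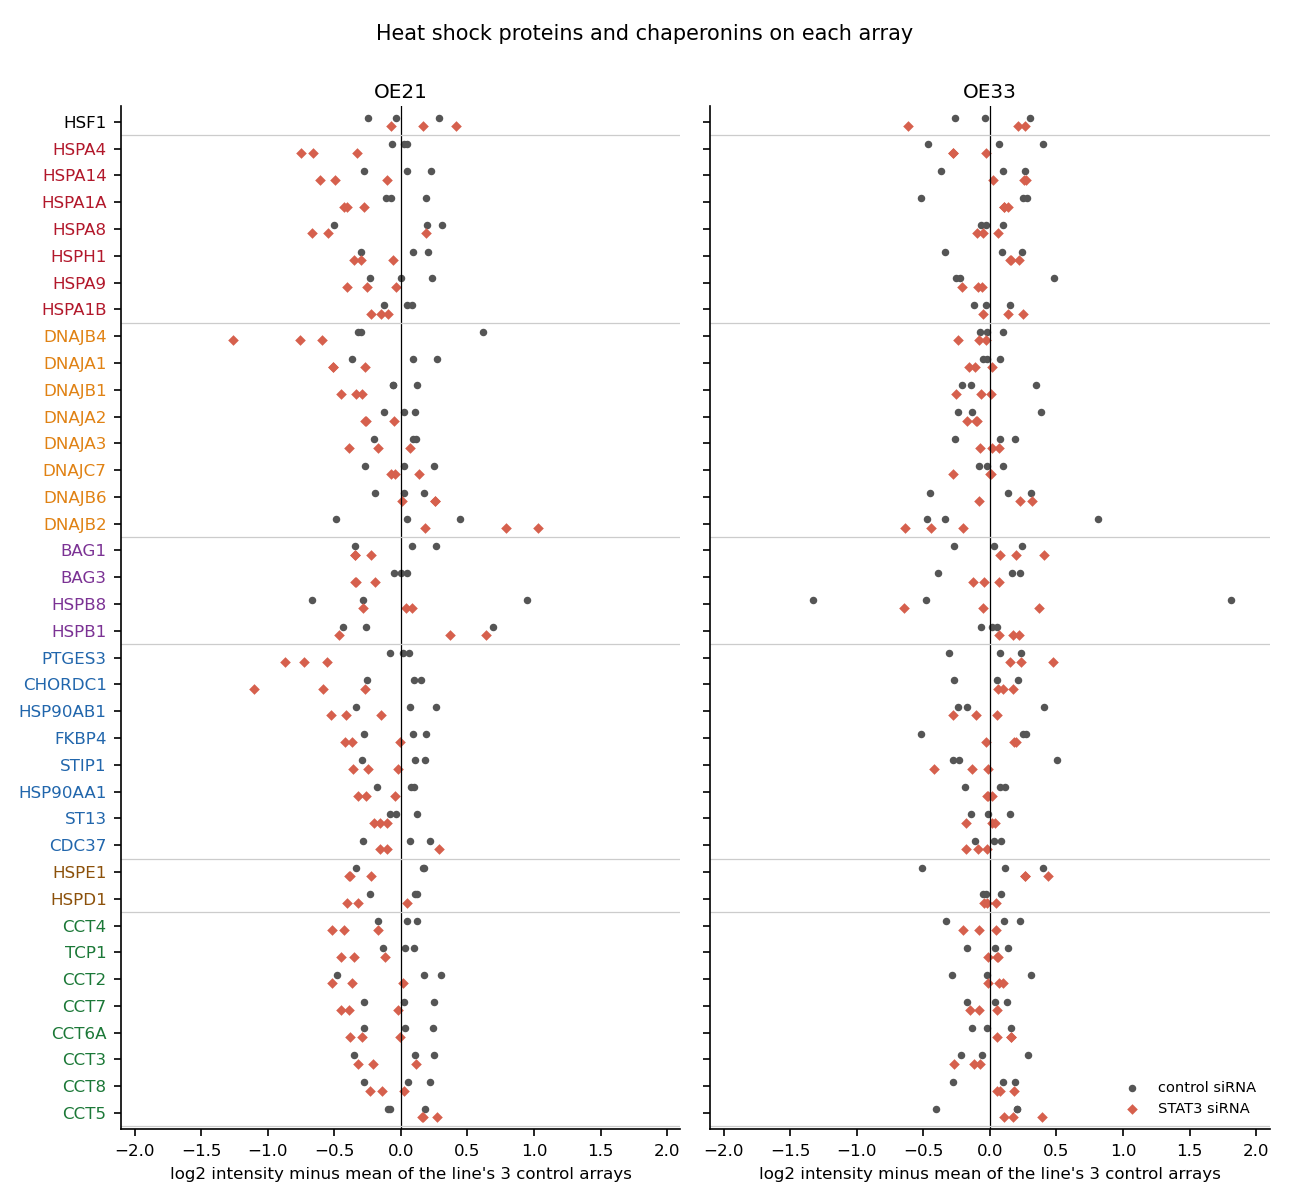
Each point is 1 array, plotted as its log2 intensity minus the mean of the line's 3 control arrays (x axis) for each of 38 members (y axis, coloured and ordered by role), with OE21 on the left and OE33 on the right. In OE21 the siRNA arrays sit mostly left of 0, with the 3 siRNA points clear of the controls for 9 members, and in OE33 the 2 groups overlap for every member but HSPB1.

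A co-chaperone of HSP90 and an exchange factor of HSP70 gave the smallest p-values of the members in OE21. PTGES3, the p23 protein that holds HSP90 in its client-bound form, was at 10.81, 10.66 and 10.76 in control cells and at 10.02, 9.87 and 10.19 after the siRNA. No siRNA array reached any control array, with a log2 fold change of -0.72 (SE 0.14, 95% interval -1.04 to -0.39, limma adjusted p = 0.301), and it ranked 42nd of 11179 genes by p. HSPA4, an HSP110-type exchange factor for HSP70, was at 9.16, 9.18 and 9.07 in control cells and at 8.47, 8.38 and 8.81 after the siRNA. Its groups did not overlap either, at -0.58 (SE 0.15, limma adjusted p = 0.301), and its other probe gave -0.51 (SE 0.14). Of the 16 alternative settings run for this comparison, both were called in 1, where limma weighted each array by its residual spread, and there PTGES3 was at -0.73 (limma adjusted p = 0.0470) and HSPA4 at -0.65 (limma adjusted p = 0.0489). That weighting called 270 genes, or 2.42% of those tested.

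CHORDC1, which binds HSP90 and is also known as morgana, had values of 7.25, 7.60 and 7.65 in OE21 control cells and of 6.92, 6.40 and 7.23 after the siRNA. The highest siRNA array lay just under the lowest control array, and the log2 fold change was -0.65 (SE 0.24, limma adjusted p = 0.394). The paired forms of HSP90 itself overlapped between groups. HSP90AA1 was at 13.72, 14 and 13.98 in control cells and at 13.64, 13.58 and 13.86 after the siRNA, a log2 fold change of -0.21 (SE 0.15). Its constitutive counterpart HSP90AB1 was at 11.46, 11.87 and 12.07 against 11.39, 11.28 and 11.65, with a log2 fold change of -0.36 (SE 0.20). In both, control replicate 1 lay among the siRNA arrays. Of the 8 HSP90-system members tested, 7 were below 0, with CDC37, the adaptor for kinase clients, at 0.01. ST13, known as Hip, which stabilises HSP70 on its clients, was the third member of this group without overlap, at -0.15 (SE 0.12).

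All 7 HSP70 and HSP110 genes were below 0 in OE21, between -0.58 and -0.16, with a median of -0.34. HSPA1A was at 11.64, 11.91 and 11.61 in control cells and at 11.32, 11.45 and 11.30 after the siRNA, without overlap, at -0.37 (SE 0.14, limma adjusted p = 0.401). HSPA1B was at 11.73, 11.89 and 11.93 against 11.70, 11.75 and 11.63, where the groups overlapped narrowly, at -0.16 (SE 0.13). The 2 genes encode nearly the same protein from nearly the same transcript, so which copy each probe reads is uncertain. HSPA14, a ribosome-associated HSP70, was at 8.68, 9.19 and 9.0 against 8.46, 8.35 and 8.85, with siRNA replicate 3 above control replicate 1, at -0.40 (SE 0.20).

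The J proteins, which bring clients to HSP70 and trigger its ATPase, were split in OE21. DNAJB4 was at 8.54, 7.62 and 7.60 in control cells and at 7.16, 7.33 and 6.66 after the siRNA, without overlap, and had the lowest log2 fold change of all members at -0.87 (SE 0.31, limma adjusted p = 0.384). A second DNAJB4 probe gave -1.19 (SE 0.28). DNAJB1 was at 10.44, 10.44 and 10.62 against 10.05, 10.21 and 10.16, also without overlap, at -0.36 (SE 0.13, limma adjusted p = 0.387). DNAJB2, a J protein that binds ubiquitinated clients, went the other way and had the highest value of all members at 0.67 (SE 0.31). Its arrays were at 9.92, 9.52 and 8.99 in control cells and at 10.27, 10.51 and 9.66 after the siRNA, and the groups overlapped. A second DNAJB2 probe, detected on 1 control and 2 siRNA arrays of OE21, gave 0.32 (SE 0.25). DNAJB6, which keeps aggregation-prone proteins soluble, was at 0.17 (SE 0.16) by its first probe and at -0.38 (SE 0.15) by its second, so no direction can be given for it.

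BAG3, an exchange factor that links HSP70 to autophagy, was at 11.78, 11.69 and 11.74 in OE21 control cells and at 11.39, 11.54 and 11.40 after the siRNA, without overlap, at -0.29 (SE 0.12, limma adjusted p = 0.438). BAG1, which links HSP70 to the proteasome, was at 5.83, 5.22 and 5.65 against 5.22, 5.34 and 5.22. Its groups overlapped through control replicate 2, at -0.30 (SE 0.18). The small heat shock protein HSPB1 (HSP27) varied more within groups than between them, at 13.77, 12.82 and 12.65 against 13.45, 13.71 and 12.61.

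Both subunits of the mitochondrial chaperonin were below 0 in OE21. HSPD1 (HSP60) was at 13.09, 13.44 and 13.42 in control cells and at 13, 12.91 and 13.36 after the siRNA, with a log2 fold change of -0.23 (SE 0.18). HSPE1 (HSP10), its lid, was at 11.64, 12.15 and 12.15 against 11.59, 11.60 and 11.76, at -0.33 (SE 0.18), while its second probe gave 0.42 (SE 0.26). The groups overlapped in both, again through control replicate 1. HSPD1 and HSPE1 are transcribed in opposite directions from neighbouring starts on chromosome 2, and 204 bases of their promoter windows were the same.

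Of the 8 CCT subunits, 7 were below 0 in OE21, between -0.37 for CCT4 and 0.20 for CCT5, with a median of -0.26. Only CCT4 had groups that did not overlap, at 8.20, 8.42 and 8.49 in control cells and 7.85, 7.94 and 8.19 after the siRNA. CCT5 was at 8.18, 8.47 and 8.20 against 8.45, 8.55 and 8.44, with every siRNA array above 2 of the controls. HSF1 was at 4.99, 5.52 and 5.20 in control cells and at 5.40, 5.16 and 5.65 after the siRNA, at 0.17 (SE 0.20), with groups that overlapped.

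The subunits did not follow the siRNA label alone in OE21. Averaged over the 8 CCT subunits as deviations from the mean of the line's 6 arrays, control replicates 2 and 3 were at 0.23 and 0.22 and siRNA replicates 1 and 2 at -0.17 and -0.21, but control replicate 1 was at -0.16 and siRNA replicate 3 at 0.10. The HSP90 system, with -0.02 for control replicate 1 and 0.04 for siRNA replicate 3, and the HSP70 and HSP110 genes, with -0.05 and 0.02, likewise had control replicates 2 and 3 highest and siRNA replicates 1 and 2 lowest, with siRNA replicate 3 above control replicate 1. The first principal component of the OE21 arrays over all genes (53.6% of the variance) also set control replicate 1 (-0.35) beside siRNA replicates 1 and 2 (-0.36 and -0.51), and siRNA replicate 3 (0.43) beside control replicates 2 and 3 (0.36 and 0.42). The part of this arrangement of the arrays in the members' values was not tested. Over all 38 members the 3 control arrays were at 0.02, 0.16 and 0.16 and the 3 siRNA arrays at -0.15, -0.17 and -0.01. Without control replicate 1 the median log2 fold change of the members was -0.35, and 13 members instead of 8 had an unadjusted p under 0.05. Without siRNA replicate 1 that number was 3. Of the endothelial markers, VWF was detected on all OE21 arrays, and the summed intensity of the 4 markers was 122 to 192 on control arrays and 191 to 243 on siRNA arrays, while PECAM1, CDH5 and KDR were detected on none. Their part in the result was not tested.

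**Figure D2:**
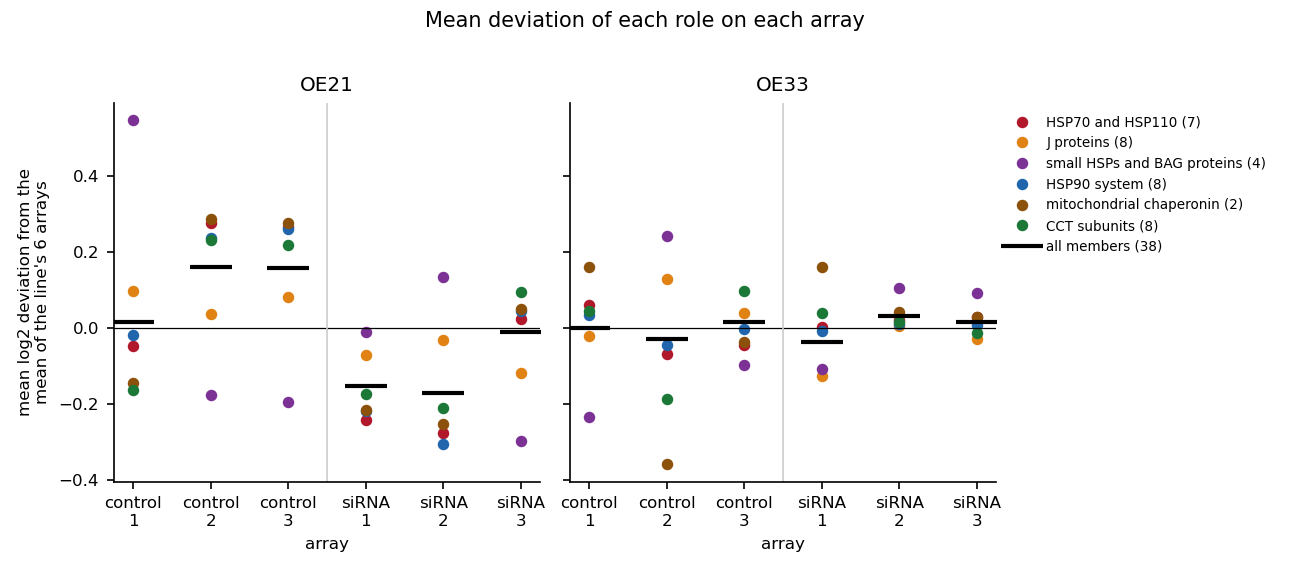
For each of the 12 arrays (x axis), coloured points give the mean log2 deviation of the members of a role from the mean of the line's 6 arrays (y axis), with the number of members in the key, and black bars give all 38 members, HSF1 included. In OE21 the CCT subunits, HSP70 genes and HSP90 system are high on control replicates 2 and 3 and low on siRNA replicates 1 and 2, with control replicate 1 and siRNA replicate 3 between them or crossed.

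In OE33, the members were spread around 0 after the STAT3 siRNA. The log2 fold change was below 0 for 21 of 38, against 52% of all genes, with a median of -0.02 against -0.01. Under limma 0 members passed, as did 0% of the 10634 genes, and 0 members had an unadjusted p under 0.05, against 2.75% of genes. Only HSPB1 had groups that did not overlap, with 12.39, 12.28 and 12.36 in control cells and 12.41, 12.56 and 12.52 after the siRNA, at 0.15 (SE 0.13). Groups without overlap were found for 7.72% of genes.

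The members with the smallest p-values in OE33 were mostly above 0. PTGES3 was at 10.90, 10.36 and 10.75 in control cells and at 10.82, 10.90 and 11.14 after the siRNA, a log2 fold change of 0.29 (SE 0.18, limma adjusted p = 0.991). HSPE1 was at 12.48, 11.58 and 12.20 against 12.52, 12.35 and 12.35, at 0.32 (SE 0.23), while its second probe gave 0.77 (SE 0.34). BAG1 was at 6.02, 5.51 and 5.81 against 5.98, 5.86 and 6.19, at 0.23 (SE 0.18), and CCT5 at 7.48, 6.88 and 7.48 against 7.38, 7.46 and 7.67, at 0.22 (SE 0.20). In these 4 genes, by the probe given per array, control replicate 2 gave the lowest value of the line. Without that array the log2 fold changes were 0.13 for PTGES3, 0.07 for HSPE1, 0.09 for BAG1 and 0.02 for CCT5. DNAJB2 was at 9.56, 10.84 and 9.69 in control cells and at 9.59, 9.82 and 9.39 after the siRNA, at -0.43 (SE 0.34), with control replicate 2 the highest of the line, and at -0.02 without it. HSPA1A, HSP90AA1 and HSPD1 were at 0.12 (SE 0.23), -0.01 (SE 0.14) and -0.01 (SE 0.13), and the siRNA arrays of HSPA1A were close together, at 11.10, 11.07 and 11.07. Without control replicate 2, HSPA1A lay below 0, at -0.14 (SE 0.10). HSF1 was at 5.03, 5.25 and 5.59 against 4.67, 5.55 and 5.50, and was detected on 2 of the 3 siRNA arrays.

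**Figure D3:**
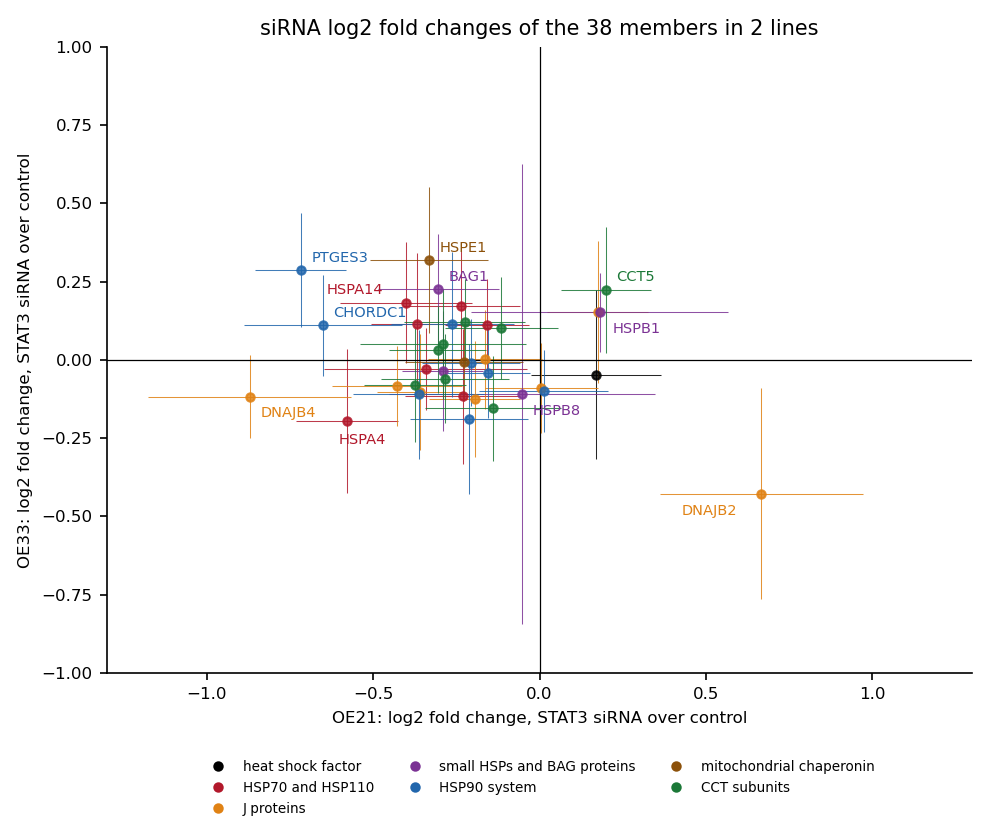
Log2 fold change of the STAT3 siRNA over control in OE21 (x axis) and in OE33 (y axis) for each of the 38 members, coloured by role, with bars of 1 SE from limma. Points spread along the x axis, where 31 lie left of 0, and cluster around 0 on the y axis, with DNAJB2 farthest to the lower right.

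The siRNA effects of the lines were compared directly. Of 38 members, 30 had a higher log2 fold change in OE33 than in OE21, against 48.9% of all genes, with a median difference of 0.25 against -0.009. None of these differences passed limma's test over 12322 genes, where 0% of genes passed. PTGES3 had the smallest p of the members, with a difference of 1.00 (SE 0.23, limma adjusted p = 0.574), and ranked 23rd of all genes. With weighted arrays it was called at 0.93 (adjusted p = 0.0340), among 229 genes, or 1.86% of those tested. The next were CHORDC1 at 0.76 (SE 0.30), DNAJB2 at -1.09 (SE 0.49), DNAJB4 at 0.75 (SE 0.35), HSPE1 at 0.65 (SE 0.31) and HSPA14 at 0.58 (SE 0.29), with limma adjusted p between 0.710 and 0.761. Without control replicate 2 of OE33 the difference was 0.85 for PTGES3, 0.63 for CHORDC1, 0.72 for DNAJB4, 0.40 for HSPA14, 0.40 for HSPE1 and -0.69 for DNAJB2, none of them called. HSPA14 was at 10.01, 9.38 and 9.85 in OE33 control cells and at 10.00, 9.77 and 10.02 after the siRNA. The second DNAJB2 probe, detected on few arrays, gave a difference of -0.18 (SE 0.38). STAT3 itself differed by 1.58 between the lines' effects (SE 0.41, limma adjusted p = 0.574).

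In control cells, 14 of the 38 members changed, 4 of them higher and 10 lower in OE33 than in OE21. This was 36.8% of members, against 49.2% of all genes (25% higher and 24.2% lower), so calls were no more frequent among the chaperones than among genes in general. The groups did not overlap for 18 members, against 55.3% of genes, and the median log2 fold change was -0.13 against 0.01. The lines also differed in transfection reagent and in epithelial markers, with a summed squamous marker intensity of 11294 to 20269 on OE21 control arrays and 526 to 609 on those of OE33, and the part of either in these differences cannot be told apart from the line itself.

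A pair of HSP90 co-chaperones rose most in OE33. CHORDC1 was at 7.25, 7.60 and 7.65 in OE21 control cells and at 8.80, 8.32 and 8.64 in those of OE33, without overlap, and rose by 1.09 (SE 0.21, limma adjusted p = 0.00111). STIP1, the HOP protein that bridges HSP70 and HSP90, was at 9.87, 10.26 and 10.34 against 10.81, 11.59 and 10.85, and rose by 0.93 (SE 0.22, limma adjusted p = 0.00448). The 2 HSP90 genes lay on opposite sides of 0. HSP90AA1, at 13.59, 13.29 and 13.55 in OE33, fell by 0.43 (limma adjusted p = 0.0253), and its 2 other probes gave -0.62 and -1.20. HSP90AB1, at 12.04, 12.68 and 12.10 in OE33, was at 0.47 (SE 0.21, limma adjusted p = 0.0817) and was not called. FKBP4 (FKBP52), a steroid receptor co-chaperone, fell by 0.61 (limma adjusted p = 0.0393).

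Among the J proteins, DNAJB4 and DNAJC7 fell. DNAJB4 was at 5.97, 5.80 and 5.85 in OE33 against 8.54, 7.62 and 7.60 in OE21, and fell by 2.05 (SE 0.25, limma adjusted p = 2.92e-05), the largest difference of any member. DNAJC7, a J protein with tetratricopeptide repeats that also binds HSP90, was at 9.60, 9.90 and 10.13 in OE21 and at 9.11, 9.05 and 9.23 in OE33, and fell by 0.74 (SE 0.16, limma adjusted p = 0.00214). The other 6 J proteins were not called and lay between -0.19 and 0.55.

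Of the HSP70 and HSP110 genes, HSPA14 rose by 0.79, HSPA1A fell by 0.76 and HSPH1 (HSP105), a stress-inducible exchange factor, fell by 0.70, with limma adjusted p between 0.00679 and 0.00732. HSPA1A was at 11.64, 11.91 and 11.61 in OE21 and at 11.21, 10.45 and 11.24 in OE33, with control replicate 2 of OE33 far below the others. HSPA1B was at 11.53, 11.44 and 11.70 in OE33, a log2 fold change of -0.29 (SE 0.14) that was not called although the groups did not overlap. HSPA4 was at 8.75, 9.08 and 8.21 in OE33 and was not called at -0.46 (SE 0.21), whereas its second probe gave -1.23 (SE 0.17, limma adjusted p = 7.83e-05 over all probes). BAG3 fell by 0.59 (SE 0.16, limma adjusted p = 0.0105). HSPB1, at 12.39, 12.28 and 12.36 in OE33, was at -0.73 (SE 0.30) and was not called.

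Each ring of CCT is built from all of its subunits in equal number. Their transcripts did not differ alike between the lines. CCT6A fell by 1.02 (SE 0.16, limma adjusted p = 0.000284), from 10.66, 10.97 and 11.17 in OE21 to 10.07, 9.89 and 9.78 in OE33. CCT5 fell by 1.00 (SE 0.18, limma adjusted p = 0.000591), from 8.18, 8.47 and 8.20 to 7.48, 6.88 and 7.48. CCT4 fell by 0.51 (limma adjusted p = 0.0272), while TCP1, the founding subunit, rose by 0.54 (limma adjusted p = 0.00759). The other 4 subunits were between -0.24 and 0.22 and were not called. HSPD1 at 0.22 (SE 0.15) and HSPE1 at 0.10 (SE 0.22) were not called, with HSPD1 at 13.62, 13.49 and 13.51 and HSPE1 at 12.48, 11.58 and 12.20 in OE33. HSF1 was at 0.05 (SE 0.25, 95% interval -0.50 to 0.61).

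**Figure D4:**
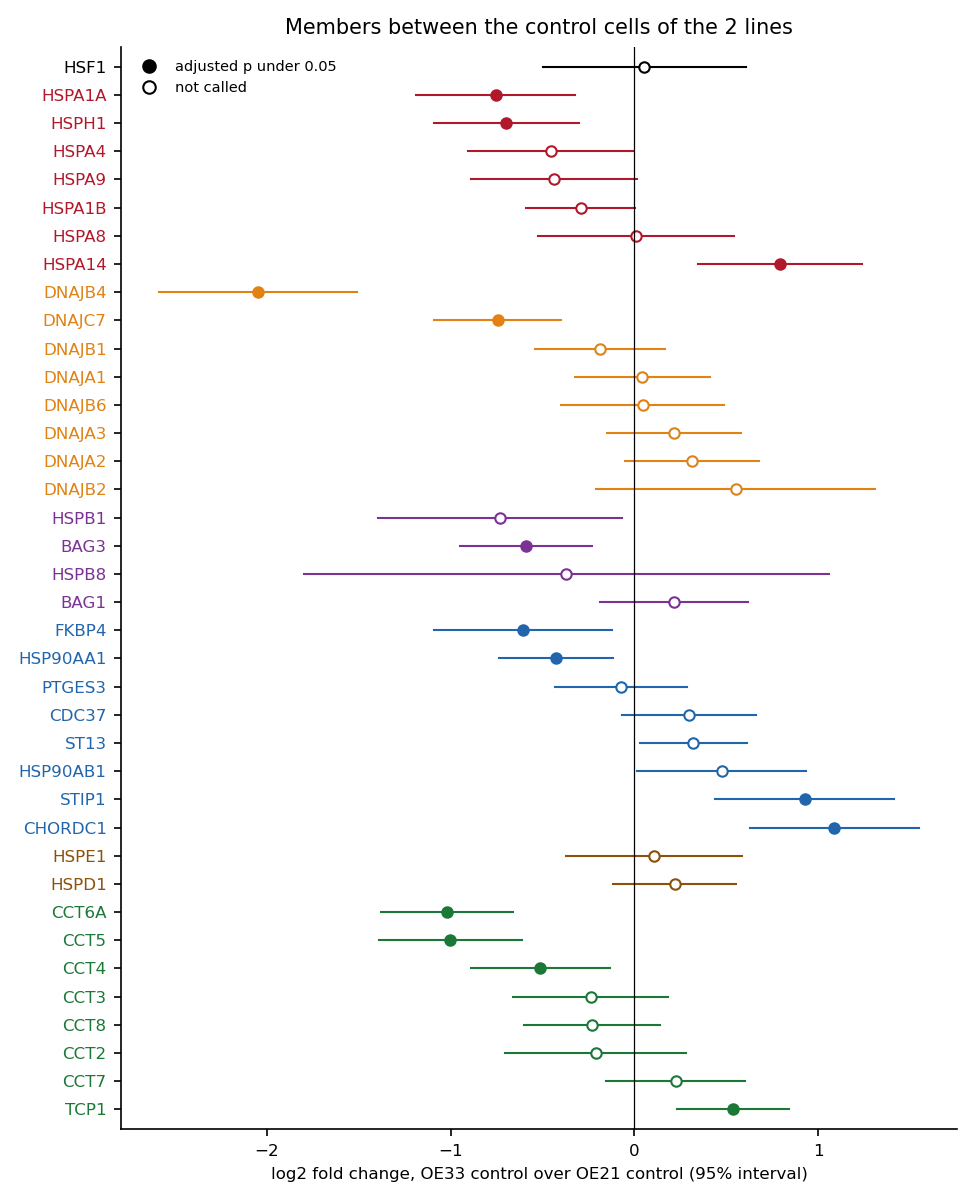
Log2 fold change of OE33 over OE21 control cells (x axis) with its 95% interval from limma for each of the 38 members (y axis, grouped and coloured by role), with filled points for an adjusted p under 0.05. The 14 called members lie on both sides of 0, with DNAJB4, CCT6A and CCT5 farthest to the left and CHORDC1 and STIP1 farthest to the right.

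Several of these calls changed with single arrays or settings. Without control replicate 2 of OE33, HSP90AA1 (-0.34), FKBP4 (-0.35) and CCT4 (-0.35) were no longer called. HSPA9 (-0.68), HSPA4 (-0.66), DNAJB1 (-0.36) and HSPB8 (-1.28) then were, all lower in OE33. The first 3 were also lost without control replicate 2 or 3 of OE21, and in a fit of the 6 control arrays only. FKBP4 was lost in further settings, such as without the filter on dim probes. HSPA9, HSPA4 and DNAJB1 were also called with array weights. TCP1 was not called when its probes were averaged (0.45) or by its dimmest detected probe (0.51). The other 10 calls, those of CHORDC1, STIP1, HSPA14, DNAJB4, CCT6A, CCT5, DNAJC7, HSPH1, HSPA1A and BAG3, were kept under all 22 alternatives. Of the members that were not called, HSPB1 was called lower in 6 of the 22 alternatives (at -0.95 to -0.54), among them those without control replicate 3 or siRNA replicate 3 of OE21. HSPA1B was called lower in 2 and ST13 higher in 3, and both were called with the authors' normalised values, at -0.29 (limma adjusted p = 0.0440) and 0.30 (limma adjusted p = 0.0234).

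HSPB8, the small heat shock protein that works with BAG3, is described because of its spread, which was noticed after its values were seen. It was at 8.47, 7.24 and 6.86 in OE21 control cells and at 7.56, 7.61 and 7.24 after the siRNA. In OE33 it was at 5.82, 8.96 and 6.67 and then at 6.51, 7.52 and 7.10. Its SD of 1.63 over the OE33 control arrays was the largest of any member in any group, against a median of 0.28 over members and 0.25 over all genes in that group.

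**Figure D5:**
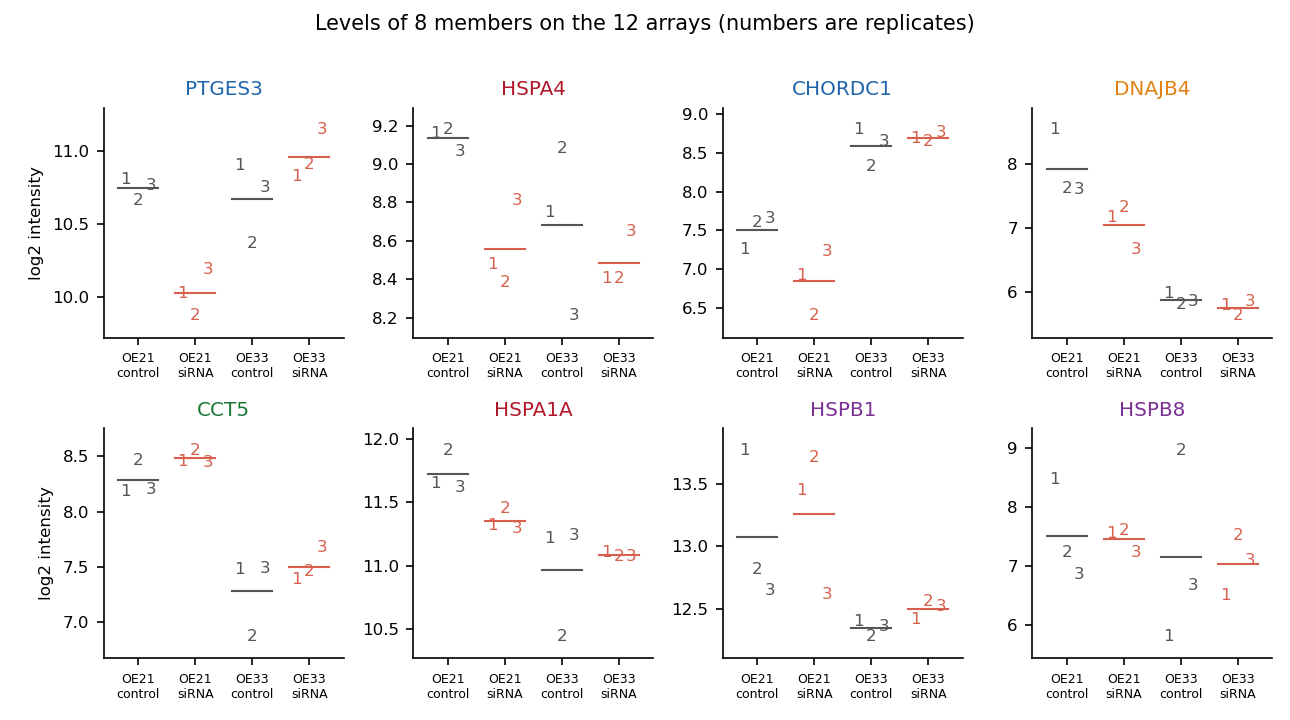
Log2 intensity (y axis, a separate range for each gene) of 8 members on the 12 arrays, by group (x axis), with digits for the replicate number and lines for the group mean of 3 arrays. PTGES3, HSPA4, CHORDC1, DNAJB4 and HSPA1A are lower on every OE21 siRNA array than on every OE21 control array, CCT5 and DNAJB4 are lower in OE33 than in OE21, and HSPB8 spans 5.82 to 8.96 within OE33 control cells.

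Members with and without a heat shock element core were set side by side. In OE21, 16 of the 18 members with a core were below 0 after the siRNA, with a median log2 fold change of -0.30, as were 11 of the 15 tested members with a promoter sequence but no core, with a median of -0.20. The 9 members without overlap in OE21 included DNAJB4, DNAJB1, CHORDC1, HSPA1A and CCT4 with a core and PTGES3, HSPA4 and BAG3 without one, and ST13 had no promoter sequence. In OE33 the medians were -0.02 with and -0.03 without a core. Between the lines' control cells, 7 of the 18 members with a core and 4 of the 15 without were called. Of those 7 with a core, CHORDC1 (6 cores) and STIP1 and TCP1 (1 each) rose. HSP90AA1 (3 cores) and HSPA1A, DNAJB4 and CCT4 (1 each) fell.

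A list of 71 other chaperone genes, among them further HSP70, J and HSP90-system proteins, prefoldin and the endoplasmic reticulum chaperone HSPA5, served as context. In OE21, 60 were tested, 27 above and 33 below 0, with a median of -0.05 and 0 called. HSPA5 (BiP), the HSP70 of the endoplasmic reticulum, was at 9.33, 9.42 and 9.14 in control cells and at 9.99, 10.03 and 9.95 after the siRNA. It lay higher on every siRNA array, by 0.69 (SE 0.13, limma adjusted p = 0.301), on the other side of 0 from all 7 HSP70 and HSP110 members. PDCL, a partner of CCT, at 0.61 and DNAJB5 at 0.54 came next, and the lowest p-values below 0 were those of HSPA1L at -0.70, CACYBP at -0.41 and TTC4 at -0.39. HSPA1L was dim, with detection on 2 of the 3 OE21 siRNA arrays and a mean of 4.84 there. In OE33, 55 were tested and 0 called, with DNAJC3 (-0.79), HSPA6 (-0.69) and DNAJC1 (-0.39) below 0 and FKBP8 (0.38), PPID (0.32) and FKBP5 (0.22) above. HSPA6 was also dim, with detection on 2 of the 3 OE33 siRNA arrays and a mean of 4.81 there. The difference between the lines' siRNA effects was -0.79 for HSPA5 (SE 0.18, limma adjusted p = 0.551), -0.64 for HSPA2 and -0.67 for BAG4, and 0.76 for CACYBP, 0.71 for HSPA1L and 0.50 for PPID, none of them called.

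In control cells, 30 of 61 of these other genes were called, 14 higher and 16 lower in OE33. DNAJC5 rose by 1.57, DNAJC10 by 1.41 and DNAJC13 by 1.10. HSPA2, an HSP70 best known from the testis, fell by 3.24 and was detected on 2 of the 3 OE33 control arrays. HSBP1, which binds HSF1 and restrains it, fell by 2.11 (SE 0.15, limma adjusted p = 2.51e-07), from 11.69, 11.86 and 11.60 in OE21 to 9.73, 9.34 and 9.75. HSPA12A was detected on no OE33 control array and was at least 7.61-fold lower there (limma adjusted p = 3.78e-07), a bound in which each array's dimmest detected probe stood for the missing level.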

How the data were processed

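Per the labels' protocols, total RNA was column-purified and turned into biotinylated cRNA for Illumina BeadChips. The authors deposited an intensity per probe and array on a linear scale, not normalised between arrays, with a detection p-value beside it. A second deposited table held the authors' normalised intensity values, made by a method the sources used here do not give, and these served as an alternative. Of 47323 probes, 30113 had 1 gene symbol in the platform annotation, 8 several and 17202 none.

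Intensities of the 12 arrays were background-corrected from the detection p-values and quantile-normalised with neqc (offset 16) in limma 3.58.1 under R 4.3.3, giving log2 values. Probes with a detection p under 0.01 on 3 or more arrays of a fit were tested, and the probe with the highest mean stood for a gene. The siRNA comparisons were fitted within each line (6 arrays, 4 residual degrees of freedom), and the line comparison and the difference of siRNA effects in 1 fit of 12 arrays (8 residual degrees of freedom), with lmFit and eBayes. Called means a Benjamini-Hochberg adjusted p under 0.05 over all genes of the fit. An exact permutation test of 3 against 3 arrays cannot go under p = 0.1. In the OE33 arrays, correlations across genes between same-numbered control and siRNA arrays were above 0 but low (0.101, 0.34 and 0.13). Control replicate 1 correlated more with siRNA replicate 3 (0.20), so a pairing by number is not clear. A replicate block changed no call in OE33. The number of arrays limits the precision. All 12 arrays carry 1 array identifier, so no slide could be tested as a batch.

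On simulated data with the spread of the OE21 arrays, limma recovered 0% of genes changed by 0.5 on the log2 scale, 58% of those changed by 1 and 84% of those changed by 2 (50 genes each, among 11179). The noise was drawn independently for each array, without the shared arrangement of the real OE21 arrays, so these shares do not give the recovery in the real data. There, STAT3 at -2.12 (SE 0.23) was not called (limma adjusted p = 0.278). Members, the list of other chaperones and the rule for named genes were chosen with earlier results of these data known. All 38 members with a probe are counted by role. The levels of HSPA8, DNAJA1, DNAJA3, CCT2, CCT3, CCT7 and CCT8 are covered only by counts and ranges. Values per array are given for the 6 with the smallest p in each comparison and for HSF1. They are also given for the pairs HSPA1A and HSPA1B, HSP90AA1 and HSP90AB1, and HSPD1 and HSPE1. The OE33 siRNA arrays of HSPA1B, HSP90AA1, HSP90AB1 and HSPD1 are left out. Of the other chaperones, the 3 with the smallest p in each direction are named. BAG3, CCT4 and HSPB8 were given per array after their values were seen. AHSA1 had no probe named for it in the annotation used here.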

Additional observations from a re-analysis of the deposited data

Results flagged for a closer look

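For 9 of the 38 members (23.7%), all 3 siRNA arrays lay on 1 side of the control mean in OE21 and all 3 on the other side in OE33, against 1207 of 12322 genes (9.8%). The difference between the lines' siRNA effects (OE33 minus OE21, log2) was 1.00 for PTGES3, 0.76 for CHORDC1, 0.65 for HSPE1, 0.58 for HSPA14, 0.53 for BAG1, 0.48 for HSPA1A, 0.41 for HSPH1 and 0.35 for CCT6A. It was -1.09 for DNAJB2, the 1 member of the 9 that was above the control mean in OE21 and below it in OE33. None of these differences passed limma's test, with adjusted p between 0.574 and 0.806. PTGES3 and CHORDC1 also had OE21 groups without overlap, as did HSPA1A. In OE33 the groups of all 9 overlapped. With the OE33 control mean taken without control replicate 2, a comparison added after the data were seen, 2 of the 9 (HSPE1 and CCT6A) still had the siRNA arrays of the lines on opposite sides. HSPA9 and DNAJA2 then joined them, giving 4 of 38 members (10.5%) against 931 genes (7.56%). For HSPE1 this holds for its first probe only. Its second probe was above 0 in both lines, at 0.42 (SE 0.26) in OE21 and 0.77 (SE 0.34) in OE33. For DNAJB2, a second probe, detected on few arrays, gave a difference of -0.18 (SE 0.38). The highest or lowest array of a group was not tested as an outlier, because the groups hold 3 arrays.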

How the results depend on the processing

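Array weights changed the most. With them, 270 genes were called in OE21 and 229 in the difference between the lines' siRNA effects, in place of 0. In OE21, 2 members were then called lower (PTGES3 and HSPA4) and the members' median log2 fold change was -0.36, and in the difference 1 member (PTGES3) was called higher and the median was 0.33. In the fit of OE33, control replicate 2 had the lowest weight (0.15) and control replicate 3 the highest (4.27). In the fit of OE21, siRNA replicate 3 (0.36) and control replicate 1 (0.47) had the lowest weights and siRNA replicate 1 the highest (3.86). The weights in the fit of all 12 arrays are not given here. In 1 fit of all 12 arrays, 12 genes and 0 members were called in OE21. Leaving out each array in turn, the members' median in OE21 lay between -0.35 and -0.18 with 31 or 32 of 38 below 0, that of the difference between 0.19 and 0.35 with 4 to 10 below 0, and that between the lines' control cells between -0.18 and -0.055, the last without control replicate 2 of OE33. Between the lines, 7 to 11 members were called lower and 4 higher. In OE21, same-numbered arrays did not all deviate together (correlations of 0.45, -0.40 and 0.50). With the replicate block 0 genes were called in either line, 0 in the difference and 6087 between the lines. Between the lines, 4 members were then called higher and 10 lower. No member that was called changed direction under any alternative. In data simulated with noise independent between arrays, a log2 difference of 0.5 was called for 0 of 50 genes in OE21. Between the lines' control cells it was called for 2 of 50, with 50 of 12322 genes changed by each simulated amount. In the real line comparison 49.2% of genes were called, among them HSP90AA1 at -0.43. The simulated share therefore does not give the recovery in the real line comparison. The causes of the shifts between settings were not tested.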

Other observations

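Several members had more than 1 detected probe (12 of 38), and their probes differed in sign for DNAJB6, HSP90AA1 and HSPE1 in OE21 and for 7 members in OE33. For no member did probes reach an unadjusted p under 0.05 in opposite directions. HSP90AA1 in OE21 had probes at -0.21 (SE 0.15), -0.05 (SE 0.22) and 0.38 (SE 0.24). HSPD1 had 3 detected probes, all below 0 in OE21, at -0.23, -0.43 and -0.47, the last with an unadjusted p of 0.0413 in limma's test of all probes. For TCP1 the 3 probes were between -0.43 and -0.16 in OE21 and between 0.30 and 0.54 between the control cells of the lines.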
